A study of Mus musculus with 6 samples.

Results

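The 38 genes described here encode the sarcomere, the contractile unit of skeletal muscle, in its fast and slow fibre forms. They were chosen by symbol from the 19309 genes of the deposited table, and each symbol matched 1 row. The table comes from whole cheek tissue of 3 healthy C57BL/6 mice aged 6 to 8 weeks at selection, with 1 RNA sequencing library from each cheek. The shaved right cheek was wiped for 30 s with an equal mixture of acetone and ether and then for 30 s with distilled water (AEW, a model of dry skin), and the left cheek was wiped for 60 s with distilled water alone (vehicle). Wiping was done in the morning and the afternoon of each day, and tissue was collected on day 12. Each group therefore held 3 libraries, numbered by mouse, and treatment and side of the face cannot be told apart. The series title names an effect of MMP9 on gene expression, but the labels give only these 2 groups, and the comparison made here is of AEW with vehicle cheek.

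A sarcomere is built from thin filaments of actin, tropomyosin and troponin that slide along thick filaments of myosin, with Z-discs anchoring the thin filaments, titin spanning from Z-disc to M-band, and nebulin running along the thin filament. Myosin heavy chains, light chains and each of the 3 troponin subunits (T, I and C) are encoded by separate genes in fast and slow fibres, so that the mixture of transcripts reflects the mixture of fibres. In mice a thin sheet of striated muscle, the panniculus carnosus, lies under the skin and is made mostly of fast fibres.

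Libraries held 18449207 to 19506491 estimated counts. The labelled tissue was checked against keratinocyte markers, and all 6 of them passed the filter on low counts, with a summed level of 10337 to 15811 CPM in vehicle and 17277 to 25783 CPM in AEW libraries (CPM are counts scaled to library size with TMM factors). Libraries of the AEW group differed from each other in hair follicle markers, whose summed level ran from 24.2 to 2258 CPM there and from 364 to 396 CPM in vehicle.

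Sarcomere transcripts were lower in AEW cheek across the whole structure. The 38 genes together took 5.22%, 4.59% and 6.11% of the summed TPM (transcript level scaled for gene length and library) in vehicle replicates 1 to 3, and 1.90%, 1.88% and 2.48% in AEW replicates 1 to 3. The lowest vehicle library was thus above the highest AEW library. Of the 38 genes, 36 passed the filter on low counts, and 32 of these 36 were lower and 0 higher at an adjusted p under 0.05 in edgeR's quasi-likelihood test, adjusted over all 15109 tested genes. Across all tested genes 6.8% were called lower and 4.85% higher. At an unadjusted p under 0.05, 36 were lower and 0 higher, beside 16% of all tested genes lower and 14.8% higher, and DESeq2 called 36 lower and 0 higher, with 10% of all genes lower. Both counts of 36 include the slow gene Tnnc1, which passed the filter through its vehicle libraries alone. The filter therefore required its direction and a separation of its groups, which also favours a small p. Tnnc1 thus adds no support to these counts. The median log2 fold change of the 36 genes was -1.35, beside 0.01 over all tested genes. By mouse the median log2 ratio of AEW to vehicle cheek was -1.37, -1.26 and -1.40 in mice 1 to 3. Each of the 36 genes was lower in the AEW cheek of all 3 mice, as were 26.9% of all tested genes, though for Tnnc1 the filter required it. In bulk tissue, fewer muscle fibres and less sarcomere RNA per fibre cannot be told apart.

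**Figure D1:**
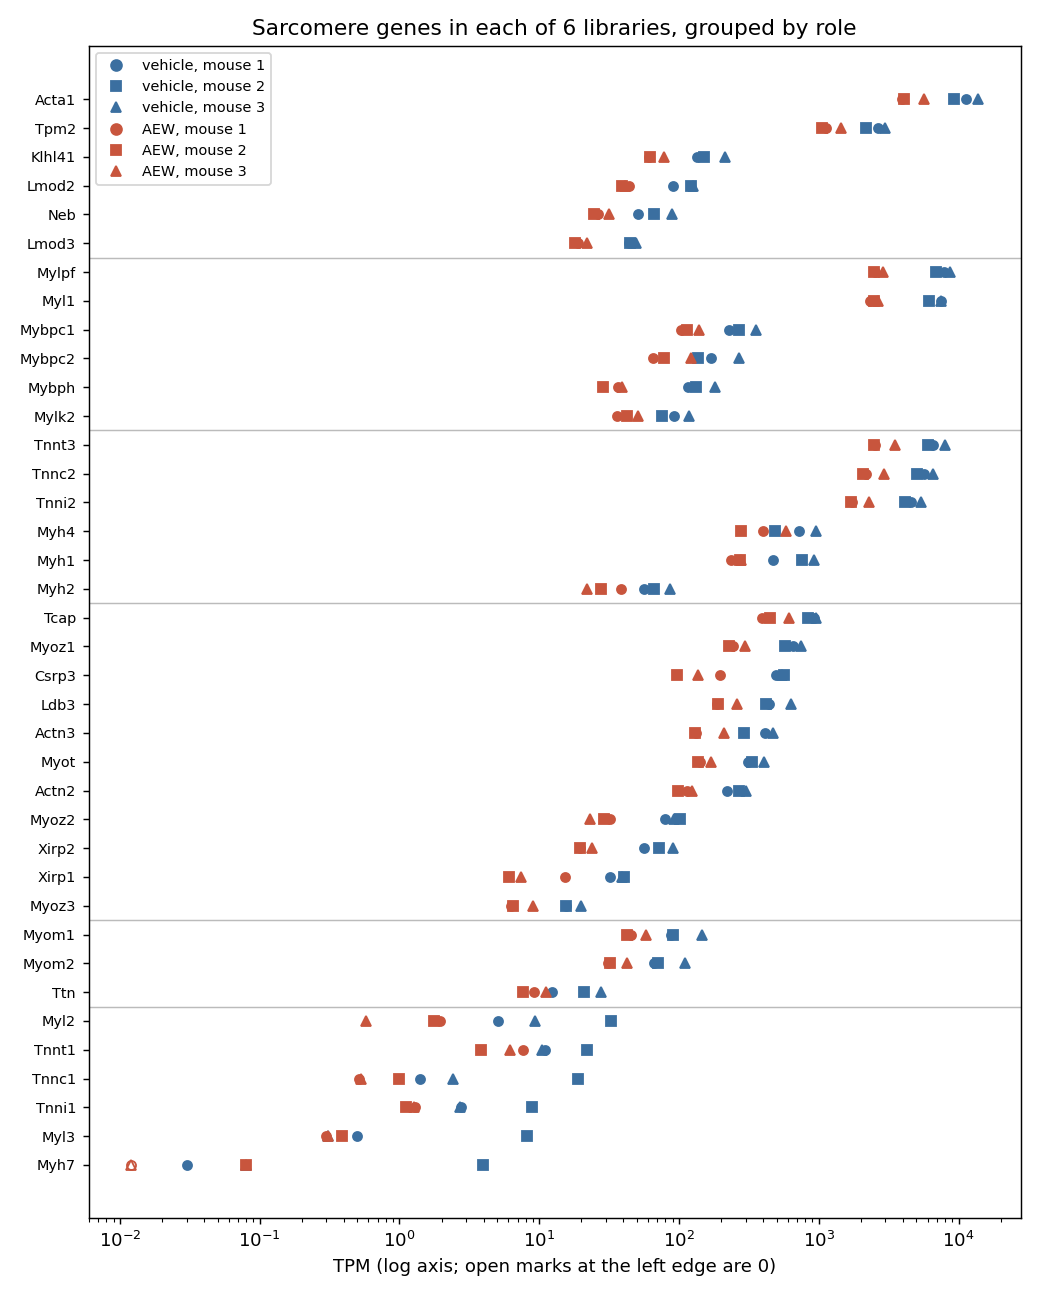
TPM (log axis) of each of the 38 sarcomere genes in the 3 vehicle (blue) and 3 AEW (red) libraries, with 1 mark per library and grey lines between role groups (from the top: thin filament, thick filament, fast isoforms, Z-disc, titin and M-band, slow isoforms). The AEW marks lie to the left of the vehicle marks in nearly every row, but overlap them in Myh4, Myh7 and Myl3. The blue squares of vehicle replicate 2 stand apart in the slow isoforms at the bottom.

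Both cheeks came from the same animals. A fit with each mouse as a block called 30 of the 36 genes lower and 0 higher, where it called 3.89% of all tested genes lower and 1.99% higher. Of the 32 genes lower without the block, 28 were also lower with it, Myh2, Myl2, Tnnt1 and Ttn were not, and Myh4 and Mybpc2 were lower with the block alone. The number called depended on single libraries. It was 18 without vehicle replicate 1, 14 without vehicle replicate 3 and 19 without AEW replicate 2, in fits that called 0.969%, 0.765% and 1.69% of all tested genes lower. Lmod2, Lmod3, Klhl41, Mylpf, Myl1, Mybph, Tnni2, Actn2, Myot, Myoz1, Myoz2, Csrp3 and Xirp2, 13 genes, were called in all 6 leave-one-out fits. Apart from the slow isoforms and Ttn, every called gene that lost its call lost it when 1 of these 3 libraries was dropped.

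Thin filament genes fell together. All 6 tested genes of this group were lower, with log2 fold changes from -1.51 to -1.19, and 4 were called when vehicle 1, vehicle 3 or AEW 2 was dropped, of which Lmod2, Lmod3 and Klhl41 were called each time. Acta1 (gene 11459) encodes skeletal muscle alpha-actin, the body of the thin filament, and had the highest level of the 38 genes in every library. It stood at 11370, 9281 and 13818 TPM in vehicle replicates 1 to 3 and at 3949, 4059 and 5695 TPM in AEW replicates 1 to 3. The groups did not overlap, and replicate 3 was the highest in both. Its log2 fold change was -1.39 ± 0.21 (SE, n = 3 each, edgeR adjusted p = 0.0145), a level 2.63 fold lower, and its call was lost when vehicle 1, vehicle 3 or AEW 2 was dropped.

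Lmod3 (gene 320502), a leiomodin that promotes the assembly of thin filaments, had one of the closest agreements between libraries, with 43.6, 44.6 and 49.0 TPM in vehicle and 19.0, 17.9 and 21.8 TPM in AEW replicates 1 to 3. The gap between the groups was several times the spread within either. Its log2 fold change was -1.30 ± 0.10 (SE, edgeR adjusted p = 0.00478). Its relative Lmod2 changed by -1.51, nebulin (Neb) by -1.38, Klhl41, a kelch protein that stabilises nebulin, by -1.37, and the tropomyosin gene Tpm2 by -1.19 on the log2 scale.

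Of the 6 light chain, myosin binding and myosin kinase genes, 5 were lower and 6 were under the mouse block, with a median log2 fold change of -1.43. The count was 4 without vehicle replicate 1, 3 without vehicle replicate 3 and 4 without AEW replicate 2. Mylpf (gene 17907), the regulatory light chain of fast myosin, stood at 7910, 6939 and 8759 TPM in vehicle and 2532, 2464 and 2889 TPM in AEW replicates 1 to 3. The highest AEW library was well under the lowest vehicle library, and the log2 fold change was -1.63 ± 0.14 (SE, edgeR adjusted p = 0.00478). Myl1, the fast alkali light chain that pairs with it, had a log2 fold change of -1.56.

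Myosin binding proteins lie across the thick filament. Mybph, myosin binding protein H, had a log2 fold change of -2.10 ± 0.19 (SE, edgeR adjusted p = 0.00478), a level 4.28 fold lower. Mybpc1, the slow type of myosin binding protein C, was lower by a log2 fold change of -1.30. The fast type, Mybpc2 (gene 233199), stood at 169, 136 and 270 TPM in vehicle and at 65.0, 78.1 and 121 TPM in AEW replicates 1 to 3. Its groups did not overlap, but AEW replicate 3 came close to vehicle replicate 2. Mybpc2 had a log2 fold change of -1.18 ± 0.31 (SE) that missed the threshold (edgeR adjusted p = 0.0535) and passed it under the mouse block (0.0337). The skeletal myosin light chain kinase gene Mylk2 had a log2 fold change of -1.20.

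**Figure D2:**
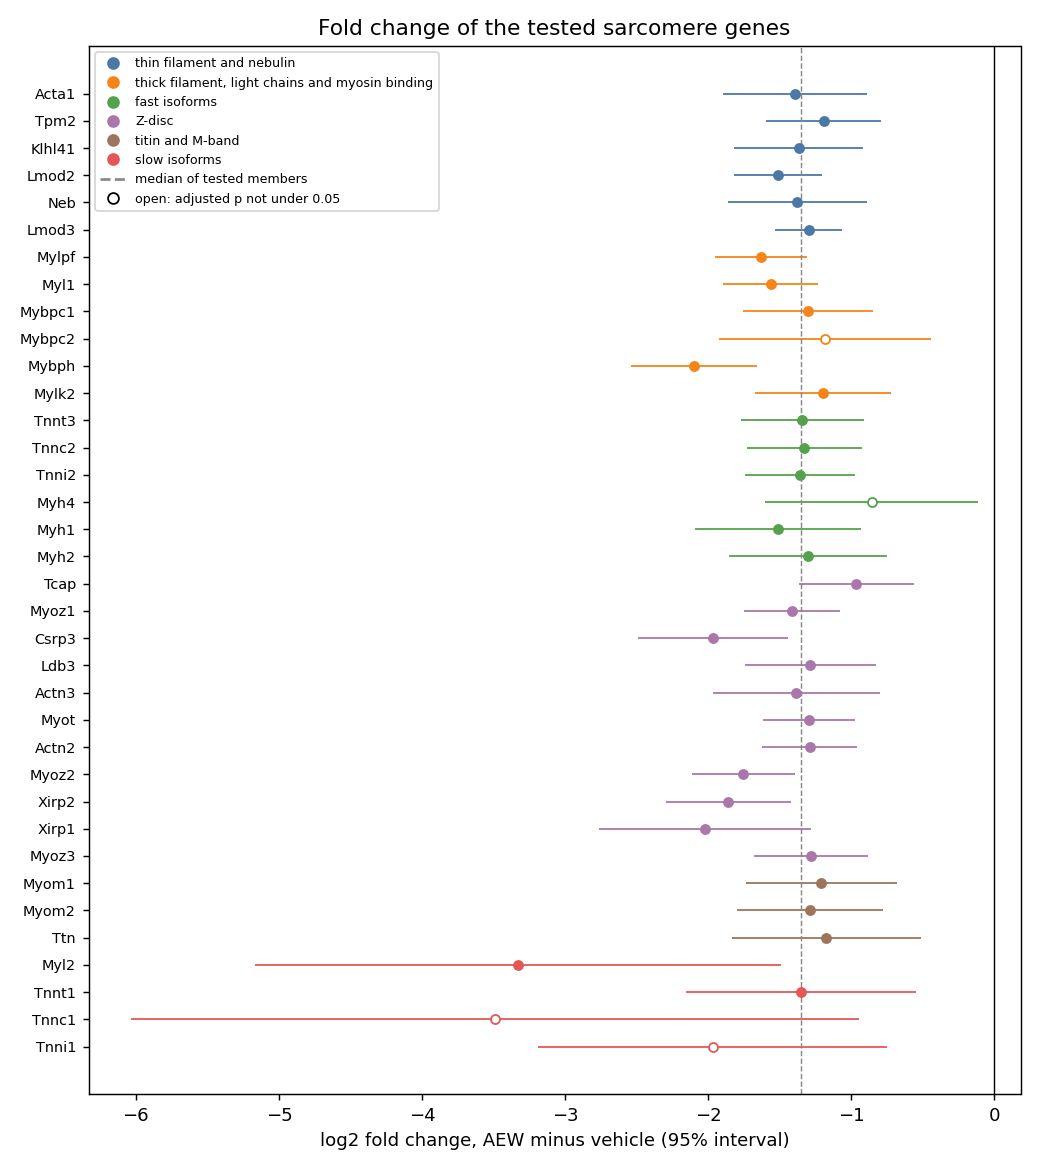
Log2 fold change of AEW against vehicle with its 95% interval for the 36 tested sarcomere genes, coloured by role. Filled points passed an adjusted p under 0.05, and the dashed line is the median of -1.35. Most points lie close to this line, Mybph, Xirp1, Csrp3 and Xirp2 lie to its left, and the slow isoforms have wide intervals.

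The adult myosin heavy chains set the speed of a fibre. Myh4, Myh1 and Myh2 encode the IIb, IIx and IIa heavy chains of fast fibres, and Myh7 encodes the beta heavy chain of slow fibres and of the heart. The 3 fast genes are close in sequence, so a fractional estimate from 50 base reads may divide reads among them and their separate values are uncertain. RefSeq promoter windows of these 4 genes are shown because their shares in each library are compared below. Each runs 5′ to 3′ from 250 bases before to 50 bases after the annotated start in GRCm38.p6, a build other than the GRCm39 of the deposited values. Capitals mark matches on either strand to the E-box CAGCTG, the MEF2 consensus, the CArG box and the TATA box TATAAA.
Myh2 (chr11:67170777-67171076, plus strand): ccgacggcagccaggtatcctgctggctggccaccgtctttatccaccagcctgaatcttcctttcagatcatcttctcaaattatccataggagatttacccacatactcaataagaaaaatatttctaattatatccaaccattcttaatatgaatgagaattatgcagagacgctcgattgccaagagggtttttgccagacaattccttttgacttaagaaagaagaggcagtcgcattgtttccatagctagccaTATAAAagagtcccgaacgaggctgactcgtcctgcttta
Myh1 (chr11:67199852-67200151, plus strand): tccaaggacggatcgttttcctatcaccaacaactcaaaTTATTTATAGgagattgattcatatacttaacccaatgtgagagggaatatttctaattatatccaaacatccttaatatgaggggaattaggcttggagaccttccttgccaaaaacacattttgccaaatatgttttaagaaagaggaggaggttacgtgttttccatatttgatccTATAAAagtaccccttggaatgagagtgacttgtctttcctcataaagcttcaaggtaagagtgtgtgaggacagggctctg
Myh4 (chr11:67237562-67237861, plus strand): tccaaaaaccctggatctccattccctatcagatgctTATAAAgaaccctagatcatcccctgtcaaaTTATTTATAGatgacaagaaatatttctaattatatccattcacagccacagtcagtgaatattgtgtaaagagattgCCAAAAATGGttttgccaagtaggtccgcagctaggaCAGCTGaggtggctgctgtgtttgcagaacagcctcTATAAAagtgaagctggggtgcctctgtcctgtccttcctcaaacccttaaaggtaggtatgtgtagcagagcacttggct
Myh7 (chr14:54994577-54994876, minus strand): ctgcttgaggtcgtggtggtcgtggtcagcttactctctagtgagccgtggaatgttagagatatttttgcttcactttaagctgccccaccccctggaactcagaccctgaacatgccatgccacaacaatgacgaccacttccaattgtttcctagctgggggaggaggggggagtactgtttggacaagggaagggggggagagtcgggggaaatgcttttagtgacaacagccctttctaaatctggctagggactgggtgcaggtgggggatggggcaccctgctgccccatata

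The window of Myh4 held 1 match to the E-box, 1 to the MEF2 consensus, 1 to the CArG box and 3 to the TATA box. That of Myh1 held 1 match to the MEF2 consensus and 2 to the TATA box, in both windows 1 of them on the other strand and inside the MEF2 match, that of Myh2 held 1 TATA box match, and in the Myh7 window 0 matches to the 4 motifs were found. The MEF2 match had the same letters, TTATTTATAG, in Myh1 and Myh4. RefSeq windows were at hand for 26 of the 38 genes. The E-box CAGCTG, one form of the general E-box CANNTG, was in the windows of 12 of these 26 genes (46.2%), against 18.3% of the 27025 genes with a window. For the MEF2 consensus these shares were 23.1% and 3.7%, for the CArG box 19.2% and 1.81%, for TATAAA 30.8% and 15.7%, and for CANNTG 88.5% and 75%. A match describes the letters and does not show that a factor binds there.

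Fast isoforms were lower in AEW cheek for 5 of 6 genes, also under the mouse block, with a median log2 fold change of -1.34. The count was 2 without vehicle replicate 1, 1 without vehicle replicate 3 and 3 without AEW replicate 2. Troponin T3 (Tnnt3, gene 21957), which ties the troponin complex to tropomyosin in fast fibres, stood at 6587, 6010 and 8037 TPM in vehicle and 2510, 2482 and 3499 TPM in AEW replicates 1 to 3. Troponin I2 (Tnni2, gene 21953), the inhibitory subunit, stood at 4562, 4149 and 5403 TPM in vehicle and 1736, 1711 and 2303 TPM in AEW. The calcium-binding subunit, troponin C2 (Tnnc2, gene 21925), stood at 5641, 5031 and 6594 TPM in vehicle and 2189, 2057 and 2935 TPM in AEW. In none of the 3 did the groups overlap, and replicate 3 was the highest library of its group each time. Their log2 fold changes were -1.34 ± 0.18, -1.36 ± 0.16 and -1.33 ± 0.17 (SE, edgeR adjusted p = 0.0119, 0.00902 and 0.0106). The 3 subunits of the fast troponin complex thus changed by nearly the same amount. Tnnt3 and Tnnc2 were not called without vehicle replicate 1 or vehicle replicate 3.

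Fast heavy chains were lower for Myh1 and Myh2. Myh1 (gene 17879) stood at 468, 765 and 928 TPM in vehicle and 236, 271 and 279 TPM in AEW replicates 1 to 3, a log2 fold change of -1.51 ± 0.25 (SE, edgeR adjusted p = 0.017), and its call was lost when vehicle 3 or AEW 2 was dropped. Myh2 (gene 17882) stood at 55.7, 66.6 and 86.1 TPM in vehicle and 38.3, 27.8 and 21.9 TPM in AEW. Its log2 fold change was -1.30 ± 0.23 (SE, edgeR adjusted p = 0.0209, and 0.0703 under the mouse block), and its call was lost when vehicle 1, vehicle 3 or AEW 2 was dropped. In both genes mouse 1 had the smallest difference between cheeks and mouse 3 the largest.

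Myh4 (gene 17884) stood at 727, 489 and 962 TPM in vehicle and 402, 279 and 583 TPM in AEW replicates 1 to 3. It was lower in the AEW cheek of each mouse, but AEW replicate 3 lay above vehicle replicate 2, and it was the only tested member whose groups overlapped. On the CPM scale, 35 of the 36 tested members had all AEW libraries below all vehicle libraries, where 19.5% of all tested genes did. None of the members had all AEW libraries above, where 17.4% of all tested genes did. The 35 include Tnnc1, for which the filter on low counts required it. The log2 fold change of Myh4 was -0.86 ± 0.32 (SE, 95% interval -1.60 to -0.11), with an edgeR adjusted p of 0.12, or 0.0213 under the mouse block. DESeq2 called it as well. Mice differed in Myh4 in the same order in both cheeks, with mouse 3 highest and mouse 2 lowest.

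Shares of the 4 adult heavy chains differed between mice as much as between cheeks. Myh4 made up 58.1%, 36.9% and 48.7% of their summed TPM in vehicle replicates 1 to 3, and 59.4%, 48.3% and 66% in AEW replicates 1 to 3. It was higher in the AEW cheek of each mouse, by little in mouse 1, but the groups overlapped. Myh1 made up 37.4%, 57.7% and 47% in vehicle and 34.9%, 46.9% and 31.5% in AEW, and Myh2 between 2.48% and 5.67% in all libraries. Myh7 reached 0.3% in vehicle replicate 2 and at most 0.0138% in the other libraries.

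**Figure D3:**
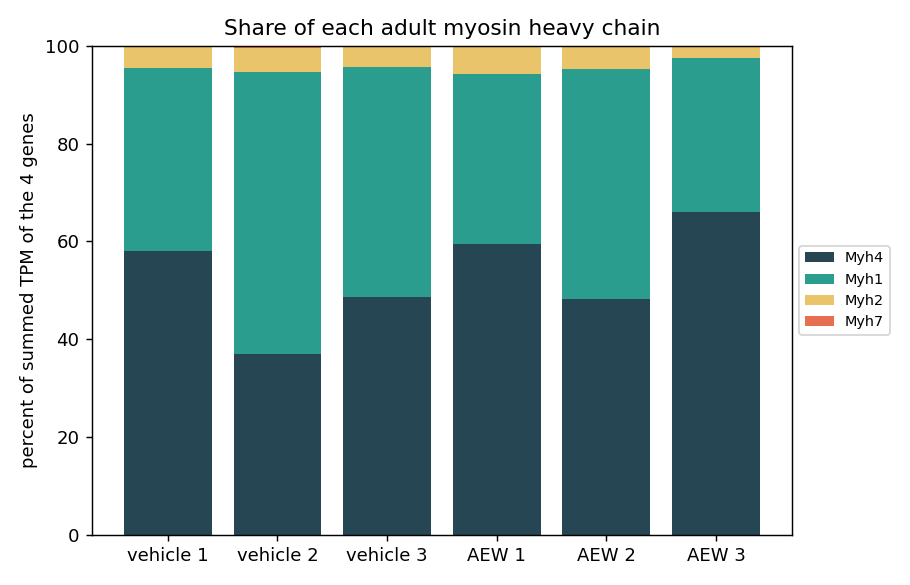
Share of each adult myosin heavy chain in the summed TPM of Myh4, Myh1, Myh2 and Myh7, in percent, with 1 bar per library. Myh4 and Myh1 make up most of every bar, vehicle 2 has the largest share of Myh1 (57.7%), and Myh7 is too small to see.

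Slow isoforms were low in all libraries but vehicle replicate 2. The 6 genes summed to 20.7, 94.8 and 25.3 TPM in vehicle replicates 1 to 3 and to 11.8, 8.21 and 8.90 TPM in AEW replicates 1 to 3, against 16509 to 22010 TPM for the 6 fast genes in vehicle and 6828 to 9620 TPM in AEW. Slow genes thus made up 0.115%, 0.571% and 0.115% of the 2 classes together in vehicle and 0.165%, 0.12% and 0.0924% in AEW. All 6 slow genes had their highest level in vehicle replicate 2, while 28 of the other 32 members had theirs in vehicle replicate 3.

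Myh7 (gene 140781), the slow heavy chain, was listed at 0.03, 3.97 and 0.08 TPM in vehicle and 0, 0.08 and 0 TPM in AEW replicates 1 to 3. These values rest on 2, 269 and 6 estimated counts in vehicle and 0, 6 and 0 in AEW, and 0 counts allow a level of up to 0.149 CPM in AEW replicate 1 and 0.155 CPM in AEW replicate 3 (3 counts, counting error only). Myl3 (gene 17897), the slow alkali light chain, stood at 0.50, 8.12 and 0.31 TPM in vehicle and 0.30, 0.39 and 0.31 TPM in AEW. Neither gene passed the filter on low counts, and neither was tested. Without vehicle replicate 2, both groups were near the floor of detection in these 2 genes.

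Myl2 (gene 17906), the slow regulatory light chain, stood at 5.08, 32.9 and 9.35 TPM in vehicle and 1.96, 1.78 and 0.58 TPM in AEW replicates 1 to 3. The groups did not overlap, and vehicle replicate 2 was far above the other vehicle libraries. Its log2 fold change was -3.33 ± 0.78 (SE, edgeR adjusted p = 0.04, and 0.0535 under the mouse block), and it passed in 0 of the 6 leave-one-out fits (adjusted p from 0.0577 to 0.108). Its log2 fold change ran from -3.74 to -2.22 in those fits.

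Among the slow troponins, subunit T1 (Tnnt1, gene 21955) stood at 11.0, 21.9 and 10.5 TPM in vehicle and 7.70, 3.85 and 6.22 TPM in AEW, with a log2 fold change of -1.35 ± 0.34 (SE, edgeR adjusted p = 0.0483, and 0.126 under the mouse block). Of the 6 leave-one-out fits only the one without AEW replicate 1 called it. Subunit I1 (Tnni1, gene 21952) stood at 2.75, 8.85 and 2.72 TPM in vehicle and 1.30, 1.12 and 1.26 TPM in AEW, and its log2 fold change of -1.97 ± 0.52 (SE) missed the threshold (edgeR adjusted p = 0.0523). Subunit C1 (Tnnc1, gene 21924), which slow fibres share with the heart, stood at 1.41, 19.1 and 2.40 TPM in vehicle and 0.51, 0.99 and 0.53 TPM in AEW, and its log2 fold change of -3.49 ± 1.08 (SE) missed it too (edgeR adjusted p = 0.0789). Tnnc1 passed the filter on low counts through its vehicle libraries alone, so its difference was in part required by the filter. Without vehicle replicate 2 the log2 fold change was -1.19 for Tnni1 and -1.52 for Tnnc1. In each of the 3 troponins AEW lay below vehicle without overlap, and vehicle replicate 2 was the highest library.

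Over the class, 2 of the 4 tested slow genes were called lower, 0 under the mouse block, 4 by DESeq2 with Tnnc1 among them, and 1 or 0 in each leave-one-out fit. Markers of heart muscle were checked because the heart shares several slow isoforms. Of these, Myh6, Nppa and Myl7 were at or under 0.273 CPM in every library and were not tested, and the 5 heart markers summed to 1.39 to 1.84 CPM in vehicle and 1.29 to 1.94 CPM in AEW. The 2 tested heart markers, Tnni3 and Ryr2, were not called by edgeR (0 also at an unadjusted p under 0.05), and Ryr2 had a log2 fold change of -0.61 (adjusted p = 0.55).

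**Figure D4:**
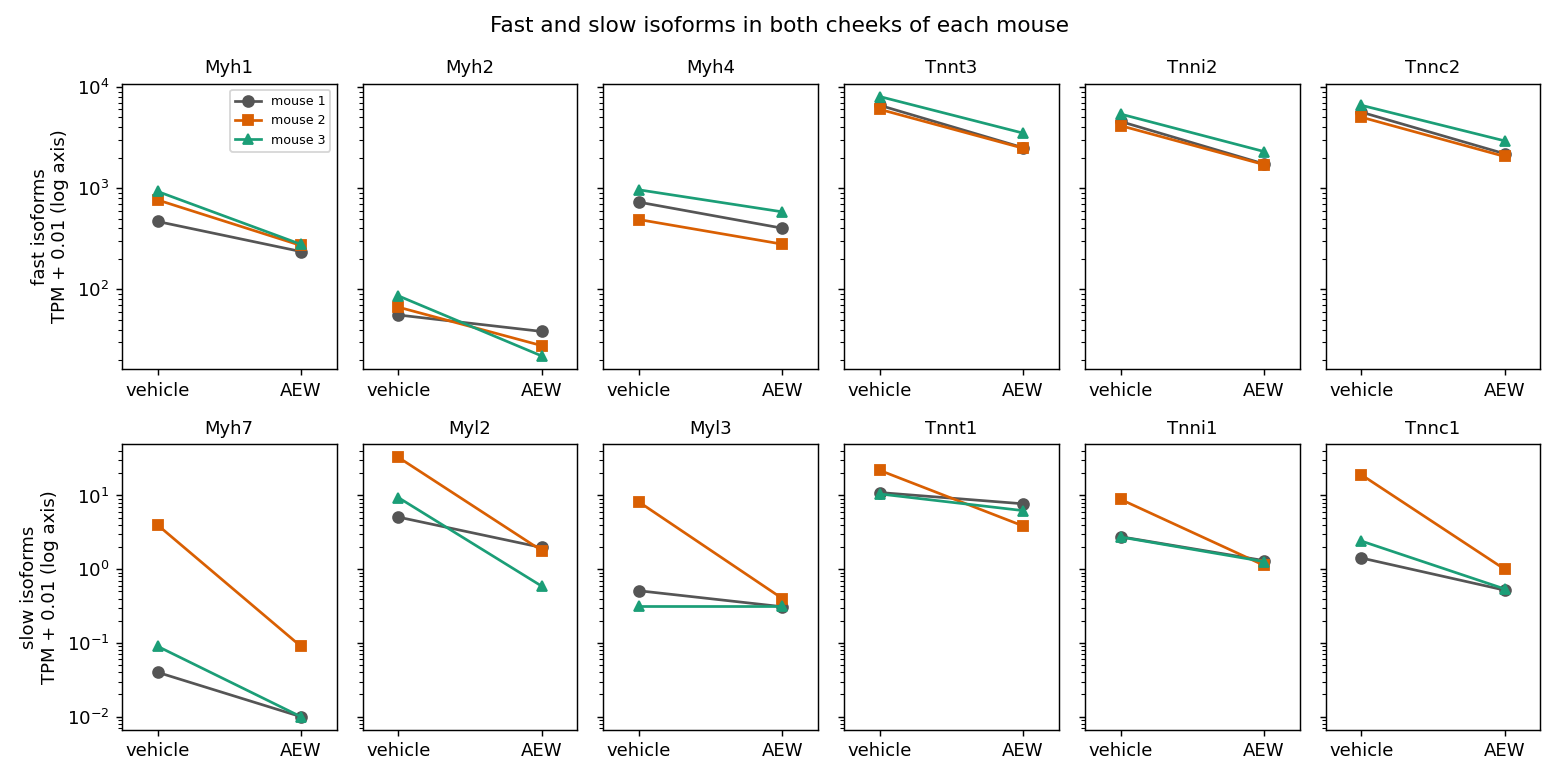
TPM + 0.01 (log axis) of the 6 fast isoforms (top) and 6 slow isoforms (bottom) in the vehicle and AEW cheek of each mouse, with 1 line per mouse. All fast lines run downwards, nearly parallel in the troponins and Myh4, while those of Myh1 draw together and those of Myh2 cross. In the slow genes mouse 2 starts well above the other mice in the vehicle cheek and ends near them in the AEW cheek.

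The ratio of summed fast to summed slow TPM was 871, 174 and 869 in vehicle replicates 1 to 3 and 604, 832 and 1081 in AEW replicates 1 to 3. Vehicle replicate 2 thus lay below the other 5 libraries. From vehicle to AEW cheek the log2 ratio changed by -0.53 in mouse 1, 2.26 in mouse 2 and 0.32 in mouse 3, a mean of 0.68 ± 1.43 (SD, n = 3), which is within the spread between mice. Without mouse 2 the mean was -0.11, so the direction rested on that animal. The fast sum itself changed by -1.34, -1.27 and -1.19 on the log2 scale in mice 1, 2 and 3, and the slow sum by -0.82, -3.53 and -1.51. The decrease of the fast sum was therefore alike in the 3 mice and that of the slow sum was not. Most of the fast sum came from the 3 troponins, and single fast genes were less alike. On the CPM scale the log2 ratio in mice 1 to 3 was -1.116, -1.448 and -1.828 for Myh1 and -0.669, -1.216 and -2.065 for Myh2. By subunit, the ratio of fast to slow TPM was 264 for troponin C in vehicle replicate 2 and 2078 to 5537 in the other libraries, 469 for troponin I against 1336 to 1986, and 275 for troponin T against 326 to 768.

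Z-disc genes were lower without exception, 11 of 11 tested, also under the mouse block, with a median log2 fold change of -1.38. The count was 7 without vehicle replicate 1, 6 without vehicle replicate 3 and 8 without AEW replicate 2. Myoz2 (gene 59006), a calsarcin that binds calcineurin and alpha-actinin at the Z-disc and is found mostly in slow fibres and heart, stood at 79.2, 101 and 92.2 TPM in vehicle and 31.9, 29.2 and 23.0 TPM in AEW replicates 1 to 3. Unlike the slow isoforms, Myoz2 was only slightly higher in vehicle replicate 2 than in the other vehicle libraries. Its log2 fold change was -1.76 ± 0.15 (SE, edgeR adjusted p = 0.00478). The calsarcins of fast fibres, Myoz1 and Myoz3, had log2 fold changes of -1.42 and -1.28.

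Alpha-actinins crosslink actin at the Z-disc. Actn3 (gene 11474), the form of fast fibres, stood at 409, 291 and 472 TPM in vehicle and 131, 130 and 209 TPM in AEW, without overlap. The log2 fold change was -1.38 ± 0.25 (SE, edgeR adjusted p = 0.0206), and dropping vehicle 1, vehicle 3 or AEW 2 ended the call. Actn2, which is present in all fibres, had a log2 fold change of -1.29. Myotilin (Myot) and Ldb3, which bind alpha-actinin, each had -1.29, and Tcap, the telethonin that caps titin in the Z-disc, had -0.96.

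Outside the slow isoforms 4 members had log2 fold changes below those of most others, namely Mybph and the Z-disc genes Xirp1, Csrp3 and Xirp2, and they were singled out after their values were seen. Csrp3, the muscle LIM protein, stood at 493, 566 and 545 TPM in vehicle and at 198, 96.2 and 137 TPM in AEW replicates 1 to 3. Xirp1 stood at 31.9, 40.5 and 39.1 TPM in vehicle and at 15.4, 6.10 and 7.35 TPM in AEW. Both genes were highest among AEW libraries in mouse 1. Log2 fold changes were -2.02 ± 0.31 for Xirp1, -1.97 ± 0.22 for Csrp3 and -1.86 ± 0.19 for Xirp2 (SE, edgeR adjusted p = 0.015, 0.00817 and 0.00582). Xirp1 was not called without vehicle replicate 1 or vehicle replicate 3. Whether these genes differ from the other members was not tested.

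Titin and the M-band genes, which link thick filaments at the centre of the sarcomere, were lower in 3 of 3 cases and 2 of 3 under the mouse block. The count was 1 without vehicle replicate 1, 0 once vehicle 3 or AEW 2 was dropped, and 2 once vehicle 2, AEW 1 or AEW 3 was. Myom2 (gene 17930), a myomesin, stood at 66.7, 71.2 and 110 TPM in vehicle and 31.2, 32.0 and 42.4 TPM in AEW, with a log2 fold change of -1.29 ± 0.22 (SE, edgeR adjusted p = 0.0178). Ttn (gene 22138), the giant spring protein titin, stood at 12.3, 20.9 and 27.7 TPM in vehicle and 9.22, 7.68 and 11.1 TPM in AEW. Vehicle replicate 1 came close to the AEW libraries. The log2 fold change of Ttn was -1.18 ± 0.28 (SE, edgeR adjusted p = 0.0422, and 0.054 under the mouse block), and among the leave-one-out fits it was called only without vehicle replicate 1. Myom1 had a log2 fold change of -1.21.

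Other sarcomere and Z-disc genes were lower in most cases. Of 42 tested genes of this list 34 were lower and 0 higher, 31 and 0 under the mouse block, with a median log2 fold change of -1.18. Across all tested genes 6.8% were called lower and 4.85% higher, and 3.89% and 1.99% under the block. Smpx, a small muscle protein, had a log2 fold change of -1.34, the small heat shock protein gene Hspb7 -1.78, the ankyrin repeat gene Ankrd2 -1.58 and Klhl40, a stabiliser of thin filament proteins, -1.56 (edgeR adjusted p = 0.00478 for each). The largest p belonged to Tnni3, the cardiac troponin I, with a log2 fold change of 0.08 (adjusted p = 0.881), and to Myh7b, with -0.83 (adjusted p = 0.357). Tpm3, a tropomyosin used both by slow fibres and by non-muscle cells and singled out after its values were seen, stood at 193, 210 and 172 TPM in vehicle and 263, 228 and 230 TPM in AEW. It was the 1 gene of the list with AEW above vehicle without overlap, and its log2 fold change of 0.29 missed the threshold (adjusted p = 0.098).

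Muscle fibre genes outside the sarcomere, such as those of calcium release and energy supply, were lower for 21 of 23 tested genes and higher for 0, with a median log2 fold change of -1.23 beside the -1.35 of the sarcomere genes. By mouse their median log2 ratio was -1.33, -1.10 and -1.23 in mice 1, 2 and 3. In the same fit 6.8% of all tested genes were called lower and 4.85% higher. Trdn, the triadin of the calcium release complex, had a log2 fold change of -1.49, Pvalb, the calcium buffer parvalbumin of fast fibres, -1.50, Jsrp1 -1.35 and Mb, the myoglobin gene of oxidative fibres, -1.22 (edgeR adjusted p = 0.00478, 0.00819, 0.0104 and 0.0106). The call of Jsrp1 was lost when vehicle 1 or vehicle 3 was dropped (adjusted p = 0.0505 and 0.0518), and that of Mb when vehicle 3 was (0.0548). The 2 genes not called are named after their values were seen. Atp2a1, the calcium pump of fast fibres, had a log2 fold change of -1.04 (adjusted p = 0.0512, and 0.0261 under the mouse block). Chrna1, a subunit of the acetylcholine receptor, stood at 2.18, 1.92 and 2.13 TPM in vehicle and 1.97, 2.15 and 2.70 TPM in AEW, with a log2 fold change of 0.07 (adjusted p = 0.828). Among 6 tested satellite cell and myogenic factors 1 was lower, Myf6, with a log2 fold change of -1.28 (adjusted p = 0.0336), and the median was -1.08. The call of Myf6 was lost when vehicle 1, vehicle 3 or AEW 2 was dropped.

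Of the markers of other cells of the tissue, most did not pass the test at an adjusted p under 0.05. At that threshold 6.8% of all tested genes were lower and 4.85% higher, and 3.89% and 1.99% under the mouse block. Smooth muscle markers were lower for 2 of 7 genes (1 under the mouse block) and higher for 0, with a median log2 fold change of -0.68 and summed levels of 552 to 684 CPM in vehicle and 345 to 514 CPM in AEW, and Myh11 had the smallest p (log2 fold change -0.77, edgeR adjusted p = 0.0174). Of 8 adipocyte markers 2 were lower and 0 higher (0 and 0 under the mouse block), with 2644 to 4447 CPM in vehicle and 1817 to 2334 CPM in AEW, and their median log2 ratio was -0.99, -0.01 and -1.25 in mice 1 to 3. Cfd, which encodes adipsin, had the smallest p of these (log2 fold change -1.06, edgeR adjusted p = 0.0304, and 0.0807 under the block). Endothelial markers were lower for 2 of 6 genes (1 under the block), with 316 to 430 CPM in vehicle and 227 to 273 CPM in AEW, and Emcn had the smallest p at -0.60. Schwann cell markers were lower for 1 of 6, Cdh19 at -0.62 (0 under the block), with 650 to 680 and 388 to 672 CPM. At an unadjusted p under 0.05 more markers were lower, beside 16% of all tested genes. These were 5 of 7 smooth muscle, 7 of 8 adipocyte, 6 of 6 endothelial and 3 of 6 Schwann cell markers. All AEW libraries lay below all vehicle libraries for 5, 4, 6 and 3 markers of these lists, and above for 0. Across all tested genes 19.5% lay below and 17.4% above.

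Keratinocyte markers were higher for 3 of 6 genes and lower for 0, also under the block. Krt1 had the smallest p (log2 fold change 1.89, edgeR adjusted p = 0.0171), while Krt15, named after its values were seen, had -0.76 with AEW below vehicle without overlap (adjusted p = 0.0506). Fibroblast markers were higher for 1 of 6 genes, Pdgfra at 0.51 (0 under the block), with 6706 to 8869 CPM in vehicle and 7025 to 12264 CPM in AEW. Sebaceous gland markers were lower for 1 of 6, Mgst1 at -0.46 (0 under the block), but ran from -0.55 to 1.18 with a median of -0.04 (7214 to 9781 and 6028 to 6440 CPM). Beside these counts, 4.85% of all tested genes were higher and 6.8% lower, and 1.99% and 3.89% under the block. The calls of Myh11, Cfd, Emcn, Cdh19, Krt1, Pdgfra and Mgst1 were each lost when vehicle 1 or vehicle 3 was dropped. Those of Myh11, Emcn and Cfd were also lost without AEW replicate 2, and that of Cfd without AEW replicate 3. Among the leave-one-out fits Cdh19 and Pdgfra were called only without AEW replicate 3, and Mgst1 only without AEW replicate 1.

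Among the 6 immune and 8 hair follicle markers 0 were called by edgeR's test, and at an unadjusted p under 0.05 these counts were 1 and 0. Immune markers ran from -0.76 for Cd3e, which had the smallest p (adjusted p = 0.086), to 0.72, with a median of -0.01 and 299 to 502 CPM in vehicle and 325 to 510 CPM in AEW. Hair follicle markers ran from -0.97 to 2.81, the latter for Krt73 (adjusted p = 0.237), which stood at 274, 0.683 and 27.2 CPM in AEW replicates 1 to 3 and had a log2 fold change of -0.05 without AEW replicate 1. The part of these other cells in the lower sarcomere levels was not tested.

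**Figure D5:**
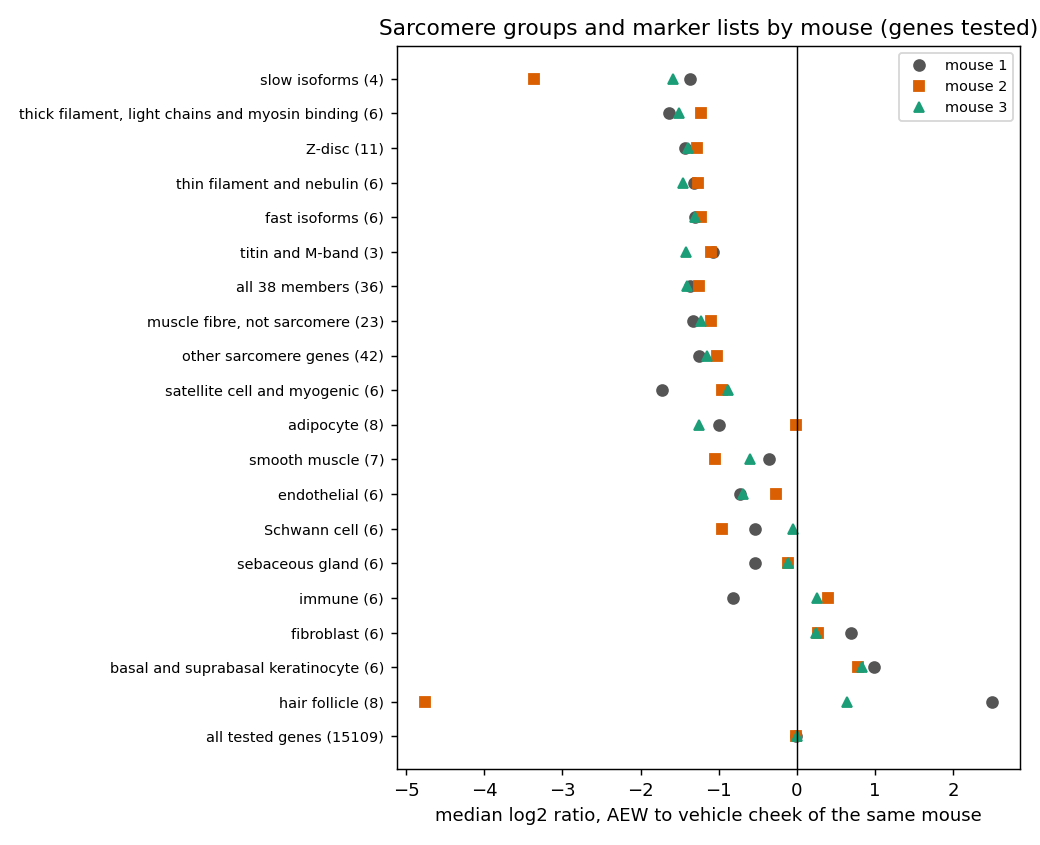
Median log2 ratio of the AEW to the vehicle cheek of the same mouse over the tested genes of each list (their number in brackets), with 1 mark per mouse. The sarcomere groups of the 38 genes lie between -1.64 and -1.07 in each mouse except the slow isoforms in mouse 2 (-3.37), adipocyte markers lie near 0 in mouse 2, and all tested genes are centred on 0.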

How the data were processed

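RNA of both cheeks of 3 mice was selected with oligo(dT) beads and sequenced in single 50 base reads, per the labels' protocols. Estimated counts, TPM and FPKM are in the table the authors deposited, per the file headers. HISAT and GRCm39 are named in the submitters' processing notes, while the sources used here do not give the counting tool, annotation or strandedness. Without strand, antisense and overlapping genes are uncertain. FPKM values were not used.

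Estimated counts were rounded, filtered with filterByExpr of edgeR 4.0.16 at a minimum count of 10, scaled with TMM and tested by quasi-likelihood with group as the single term (Benjamini-Hochberg over 15109 genes, threshold 0.05). Members, lists and tests were chosen with earlier results of these data known. Values are given in every library for both isoform classes and Acta1, and in each other role group for the genes with the smallest and the largest p. From the other sarcomere genes the 4 smallest and 2 largest p are named, from the other fibre genes the 4 smallest, and from each marker list the smallest. The test was tried on simulated counts. Alternatives were no filter, DESeq2 1.42.0 and its size factors, a mouse block, limma 3.58.1 on log2(TPM + 1) and leaving out each library.

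The labels number both libraries of an animal alike, which pairs them. Across genes, the deviation of a library from its group mean correlated with that of the other cheek at -0.222, -0.197 and -0.278 in mice 1 to 3. With negative correlations, p-values without the block can be too small.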

Additional observations from a re-analysis of the deposited data

How the results depend on the processing

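The direction of all 36 tested sarcomere genes was the same in every alternative run, and the number called was not. For Tnnc1 this direction was required by the filter in the main fit. The number called was 32 with no low-count filter and with DESeq2 size factors, where 5.1% and 6.59% of all tested genes were lower. It was 36 with DESeq2 (10%), 29 with limma on log2(TPM + 1) (4.41%) and 30 with the mouse as a replicate block (3.89%). In the 6 leave-one-out fits it was 14 to 30, where 0.765% to 6.81% of all tested genes were lower. Each of these fits called 0 sarcomere genes higher. The median log2 fold change was -1.27 with limma on log2(TPM + 1), a scale that pulls low genes toward 0, and ran from -1.48 to -1.22 when a library was left out. The count of all genes called lower fell from 1027 to 588, and higher from 733 to 300, with the replicate block. The mean change of the fast to slow log2 ratio ran from -0.11 without replicate 2 to 1.28 without replicate 1. The cause of these shifts was not tested. Of single genes, Tnni3 ran from -0.093 without vehicle replicate 1 to 0.207 without vehicle replicate 2 (-0.023 without AEW replicate 2), and Krt73 from -0.051 without AEW replicate 1 to 3.396 without AEW replicate 2, none of them called in the main analysis. Depth limits the slow isoforms Myh7, Myl3 and Tnnc1, which held at most 18 counts in every library but vehicle replicate 2.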

Other observations

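The rise of slow isoforms in vehicle replicate 2 was set beside all genes. Among 13627 genes with at least 2 CPM in that library, 1 stood at 0 in all other libraries. That gene had no finite ratio and is left out of the ranks given here. For the rest, the ratio of the level there to the next highest of the other 5 libraries was largest for Myh7, at 43.4. Myl3 had rank 3 with 15.6, Tnnc1 rank 10 with 7.83, and Myl2, Tnni1 and Tnnt1 ranks 15, 18 and 28 with 3.54, 3.09 and 1.84. The genes were ranked after the slow isoform values had been seen, so this is a description of 1 library. Of the 15 genes with the largest ratios, 4 were slow isoforms and 9 were keratin-associated protein genes of the hair shaft, among them Krtap16-3, at 3.24 CPM there and at most 0.219 CPM elsewhere, and Krtap6-5, at 5.62 CPM and at most 0.382 CPM. The part of hair shaft RNA or of any other tissue in the slow isoform levels was not tested. Of other genes common in slow or oxidative fibres, Mb and Myoz2 were looked up after these values were seen. They lay within the range of the vehicle libraries or just above it. Mb stood at 958, 1164 and 1209 CPM and Myoz2 at 55.5, 69.3 and 63.8 CPM in vehicle replicates 1 to 3. Both were already far above the slow isoforms in the other vehicle libraries, so these 2 genes cannot show a small addition.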
